A study of Mus musculus with 22 samples.

Results

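Neutrophils are the white blood cells that enter an injured lung first, and the genes described here are 36 mouse genes for the proteins that such cells carry in their granules, on their surface and in their superoxide-producing oxidase. They were listed by the known roles of their products, at a time when earlier results of these data were known. Of the 36, 35 had a probe on the array that could be matched to the gene by its RefSeq accession, out of 20018 genes matched in this way, and each is described by its brightest probe. No probe was matched to Ly6g, which encodes the surface antigen most often used to sort mouse neutrophils. Of the 35, 33 were expressed above the level of the negative control spots in at least 1 group. Mmp25, which encodes a membrane-bound metalloproteinase, and Clec5a, which encodes a lectin receptor, were not.

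The RNA came from the right lungs of 22 female C57BL/6 mice that entered the experiment at 8 weeks of age. Each mouse had received a single intratracheal instillation, and lungs were taken 24 h later. Mitsui7, a multiwalled carbon nanotube, was given at 18 µg to 6 mice, at 54 µg to 5 and at 162 µg to 6, and 5 controls received vehicle. The vehicle that the controls received was 0.9% NaCl holding 10% of cell-free lavage fluid from other mice, so all groups were instilled with fluid and lavage protein, and there was no untreated group. The sources do not say whether the arrayed right lungs were rinsed by lavage first, a step that removes cells from the airspaces. Lung RNA (Cy5) was hybridised against RNA of 11 pooled mouse cell lines (Cy3), and the values below are loess-normalized log2 ratios of the former to the latter. A ratio of one gene is not a level that can be set against another gene. Nothing states that same-numbered mice of different groups were paired.

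Neutrophils make their granules in sequence while they mature in the bone marrow. The primary granules hold myeloperoxidase and serine proteases, and the secondary granules hold lactoferrin, cathelicidin and other antimicrobial proteins. Many of the primary granule transcripts are therefore highest in the marrow and low in circulating cells, whereas S100a8, S100a9 and Retnlg stay abundant in mature cells. On the surface, formyl peptide and platelet-activating factor receptors guide the cell, integrins hold it to endothelium, and Fc receptors bind antibody-coated particles. The phagocyte oxidase is assembled from membrane and cytosolic subunits when the cell is activated. Several of these genes, among them Itgam, Itgb2, Cybb, Fcgr3, Alox5ap and Slpi, are also transcribed in macrophages, in other leukocytes or in airway epithelium. In whole lung, fewer cells of a type and less RNA per cell cannot be told apart.

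At none of the 3 doses did a neutrophil gene of the list pass the test against controls. To be called, an expressed gene had to change 1.5-fold or more with an adjusted p no higher than 0.05 in limma, with dose and slide fitted over all 22 arrays. By that rule 0 of 35 genes were called at 18 µg, where 0.52% of all 20018 genes were called higher and 1.18% lower. At 54 µg 0 of 35 were called, against 0.205% of all genes higher and 0.115% lower. At 162 µg 0 of 35 were called, against 2.74% of all genes higher and 2.9% lower. The smallest adjusted p in limma was 0.199 for Ltf at 18 µg, 0.458 for Ncf1 at 54 µg and 0.0728 for Cd300lf at 162 µg. The study also counted cells in lavage fluid and reported more neutrophils than in controls at all 3 doses. Those are counts of airspace cells and not of lung RNA, so the absence of called genes is not an absence of neutrophil influx.

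Without adjustment, limma gave a p under 0.05 for 5 of 35 genes at 18 µg, with Slpi higher and Prtn3, Ltf, Fpr1 and Mxd1 lower, against 19% of all genes in either direction. At 54 µg there were 3 of 35 (Ptafr higher, Fpr1 and Ncf1 lower), against 12%. At 162 µg there were 2 of 35, Retnlg and Cd300lf, both higher, against 24.4%. The 35 genes had a median log2 fold change of 0.05 at 18 µg (all genes -0.01), 0.05 at 54 µg (all genes -0.01) and 0.09 at 162 µg (all genes 0). The fold change was above 0 for 21 of 35 genes at 18 µg, 19 at 54 µg and 22 at 162 µg.

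Each treated lung was also set against the control of its slide. At 18 µg, over up to 4 slides, 1 of 35 genes was higher on all of them (10.8% of all genes) and 6 were lower (11.8%). At 54 µg, over up to 3 slides, 14 of 35 were higher on all (17.7% of all genes) and 0 lower (19%). At 162 µg, over up to 4 slides, 4 of 35 were higher on all (14.2% of all genes) and 1 lower (15%). Control replicate 2 was the highest control for 26 of the 35 genes. Its slide held arrays at 18 µg and 162 µg but no array at 54 µg, so it entered only the counts at 18 µg and 162 µg. The counts of the 3 doses thus rest on different controls.

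Intervals are counted here over the 31 genes whose spot was well above local background on at least 11 of the 22 arrays, since the ratio of a dim spot can hide a change. The 95% confidence interval excluded a 2-fold increase for 24 of these 31 genes at 18 µg, 25 at 54 µg and 23 at 162 µg. At 162 µg the interval lay between a 2-fold decrease and a 2-fold increase for 22 of the 31. At 162 µg the standard error had a median of 0.247 over the 35 genes and 0.131 over all genes, so changes in these genes were measured with less precision than those of most genes on the array.

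**Figure D1:**
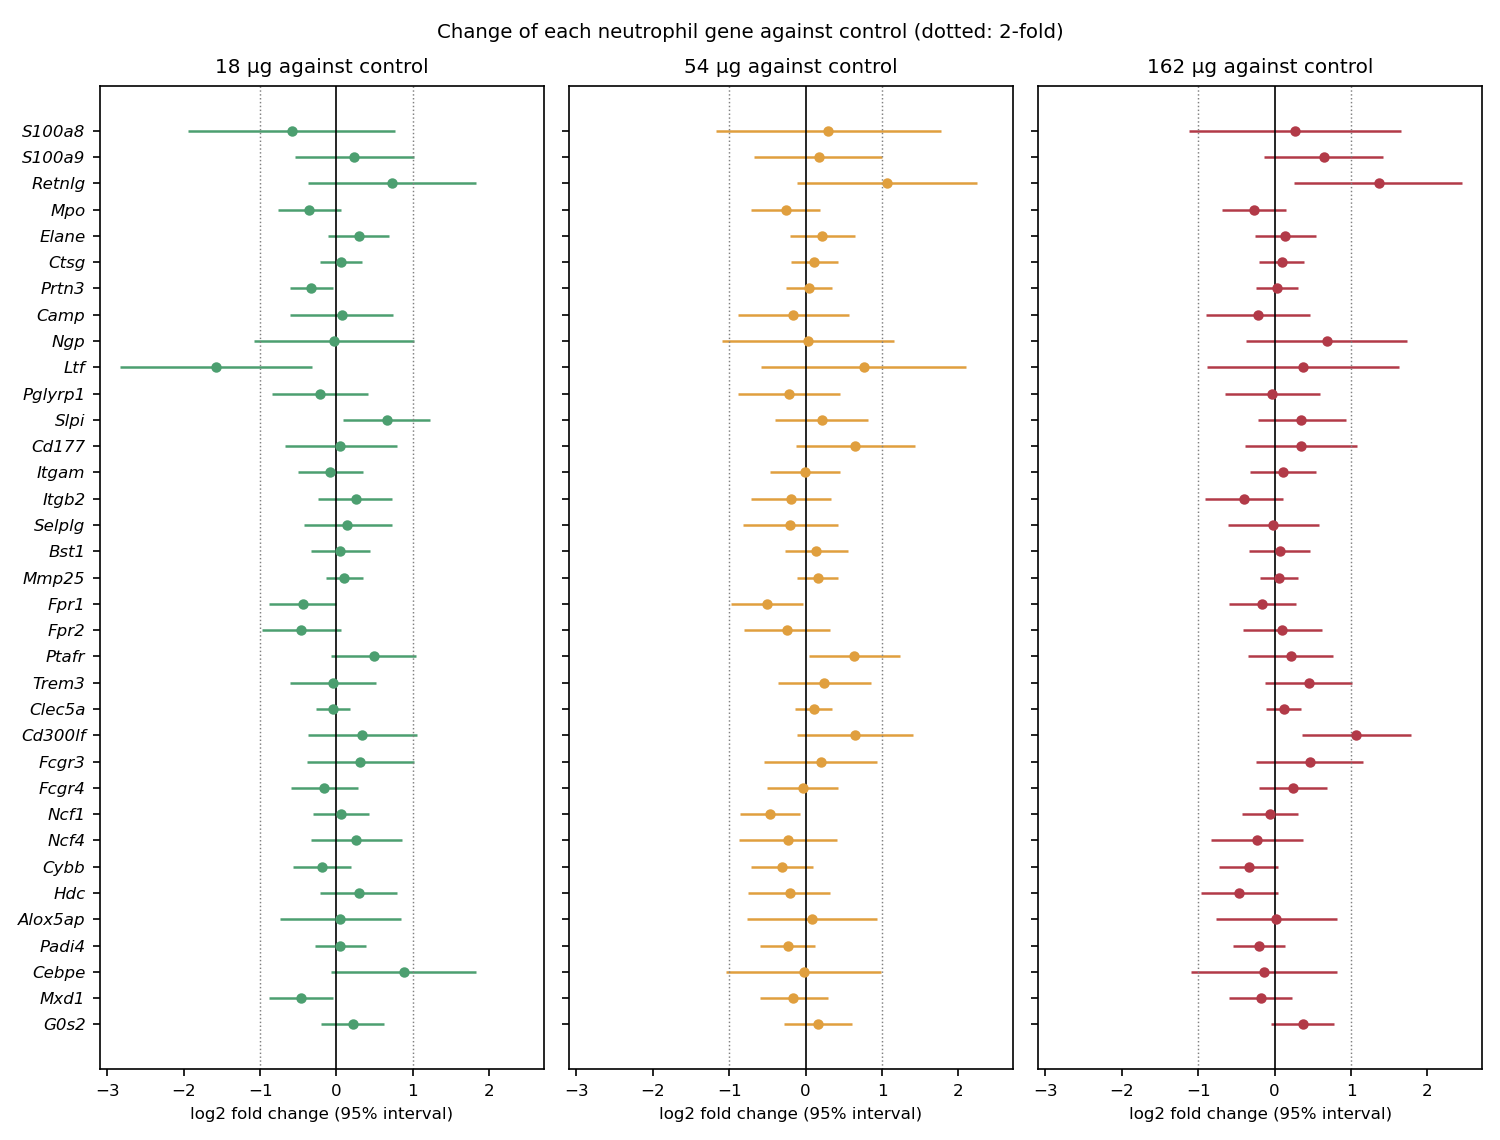
Log2 fold change of each of the 35 neutrophil genes against control at 18, 54 and 162 µg Mitsui7, from limma with dose and slide, as points with 95% confidence intervals. Dotted lines mark a 2-fold change in either direction. At 162 µg Retnlg (1.36) and Cd300lf (1.07) lie farthest to the right and most intervals cross 0.

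S100a8 and S100a9 encode the calcium-binding subunits of calprotectin, the most abundant protein of the neutrophil cytosol, and Retnlg encodes a secreted resistin-like protein of mature neutrophils. Retnlg had the largest log2 fold change of all 35 genes at 162 µg. Its log2 ratio in the 5 controls was 3.72, 6.31, 3.45, 3.57 and 2.81. At 18 µg it ran from 3.09 to 5.70 with a median of 4.42, at 54 µg it was 4.32, 5.47, 4.10, 4.17 and 5.16, and at 162 µg it ran from 3.67 to 6.85 with a median of 5.17. All 5 lungs at 54 µg and 5 of 6 at 162 µg lay above the 4 lower controls, and control replicate 2 lay above all but 1 treated lung. The log2 fold change was 0.73 (SE 0.52) at 18 µg, 1.06 (SE 0.56) at 54 µg and 1.36 (SE 0.52, 95% interval 0.26 to 2.45, adjusted p = 0.156 in limma) at 162 µg. Within slides that held both, Retnlg was higher than in the control of the same slide on 3 of 3 slides at 54 µg and 3 of 4 at 162 µg, where the differences ran from -1.24 to 3.40. The -1.24 was against control replicate 2, whose slide held no array at 54 µg.

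S100a9 and S100a8 are given here although their values had been seen. S100a9 was 6.62, 8.57, 6.64, 6.79 and 6.40 in the controls, and at 162 µg it ran from 6.95 to 8.84 with a median of 7.86. Every lung at 162 µg was above 4 of the 5 controls, and control replicate 2 was above 5 of the 6. The log2 fold change was 0.64 (SE 0.37, adjusted p = 0.406 in limma) at 162 µg, 0.17 (SE 0.39) at 54 µg and 0.23 (SE 0.37) at 18 µg. The S100a8 spot was marked as an outlier by the scanner software on the 3 arrays of 1 slide and has no value there. In the other 4 controls S100a8 was 3.45, 6.37, 2.92 and 2.00, and in 5 lungs at 162 µg it ran from 1.92 to 4.44. Its log2 fold change at 162 µg was 0.27 (SE 0.65), and 1.16 (adjusted p = 0.484 in limma) with the marked spots kept, when 162 µg replicate 2 had a value of 6.66.

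The primary granule genes Mpo (myeloperoxidase), Elane (neutrophil elastase), Ctsg (cathepsin G) and Prtn3 (proteinase 3) differed little between groups. Their log2 fold changes at 162 µg ran from -0.27 to 0.14, with 0.56 as the smallest adjusted p in limma. Elane, which had the largest value of the 4, was -0.23, 0.13, 0.28, 0.06 and -0.16 in controls and ran from -0.10 to 1.05 at 162 µg with a median of 0.11. Its groups overlapped at every dose, and its log2 fold change at 162 µg was 0.14 (SE 0.19). Prtn3 had a log2 fold change of -0.33 (SE 0.13, adjusted p = 0.243 in limma) at 18 µg and 0.03 (SE 0.13) at 162 µg. Mpo was dim, and its spot was well above local background on 4 of 22 arrays and on 0 of the 6 at 18 µg.

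The secondary granule and antimicrobial group is Camp (cathelicidin), Ngp (neutrophilic granule protein), Ltf (lactoferrin), Pglyrp1 (a peptidoglycan-binding protein) and Slpi (an inhibitor of neutrophil elastase). Their log2 fold changes at 162 µg ran from -0.22 for Camp to 0.68 for Ngp. Ngp was 0.33, 2.40, 0.16, 0.00 and 0.05 in controls, 0.60, 0.39, 0.24, 0.60 and 0.22 at 54 µg, and ran from 0.11 to 3.87 with a median of 0.59 at 162 µg. In each of the control and 162 µg groups 1 lung stood apart from the rest, control replicate 2 and 162 µg replicate 2. The change of Ngp at 162 µg had an SE of 0.50 and an adjusted p of 0.555 in limma. The Ngp spot was well above local background on 5 of 22 arrays, 1 of them a control and 3 of them at 162 µg, so its fold change is not exact. Without 162 µg replicate 2 the log2 fold change was -0.02, and without control replicate 2 it was 1.25. None of the 18 µg arrays had it well above background, so only a bound is known there.

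Ltf and Slpi, named after their values were seen, varied in different ways. Ltf was 4.45, 5.06, 6.00, 6.86 and 3.22 in controls and ran from 1.39 to 7.13 with a median of 2.65 at 18 µg, the widest range of its 4 groups. Its log2 fold change was -1.58 (SE 0.60, adjusted p = 0.199 in limma) at 18 µg, 0.76 (SE 0.64) at 54 µg and 0.37 (SE 0.60) at 162 µg. In each group the lung highest for Ltf was also highest for Bpifa1, a lung epithelial gene (8.27, 8.47, 7.21 and 7.43 by rising dose). Yet the lung lowest for Ltf at 18 µg had a Bpifa1 value of 4.60, and other lung epithelial genes did not share the top lung in every group. The part of epithelium in the Ltf values was not tested. Slpi was -1.41, -0.66, -0.91, -0.98 and -0.81 in controls and ran from -0.64 to -0.28 at 162 µg. All 6 lungs at 162 µg were above all 5 controls, and Slpi was the 1 gene of 35 whose groups did not overlap at that dose, against 6.81% of all genes. No gene of the 35 was free of overlap at 18 µg or 54 µg, where 2.84% and 2.87% of all genes were. The log2 fold change of Slpi was 0.66 (SE 0.27, adjusted p = 0.25 in limma) at 18 µg and 0.35 (SE 0.27, adjusted p = 0.583 in limma) at 162 µg, and it was higher than the control of its slide on 4 of 4 slides at 162 µg, by 0.02 to 0.64.

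**Figure D2:**
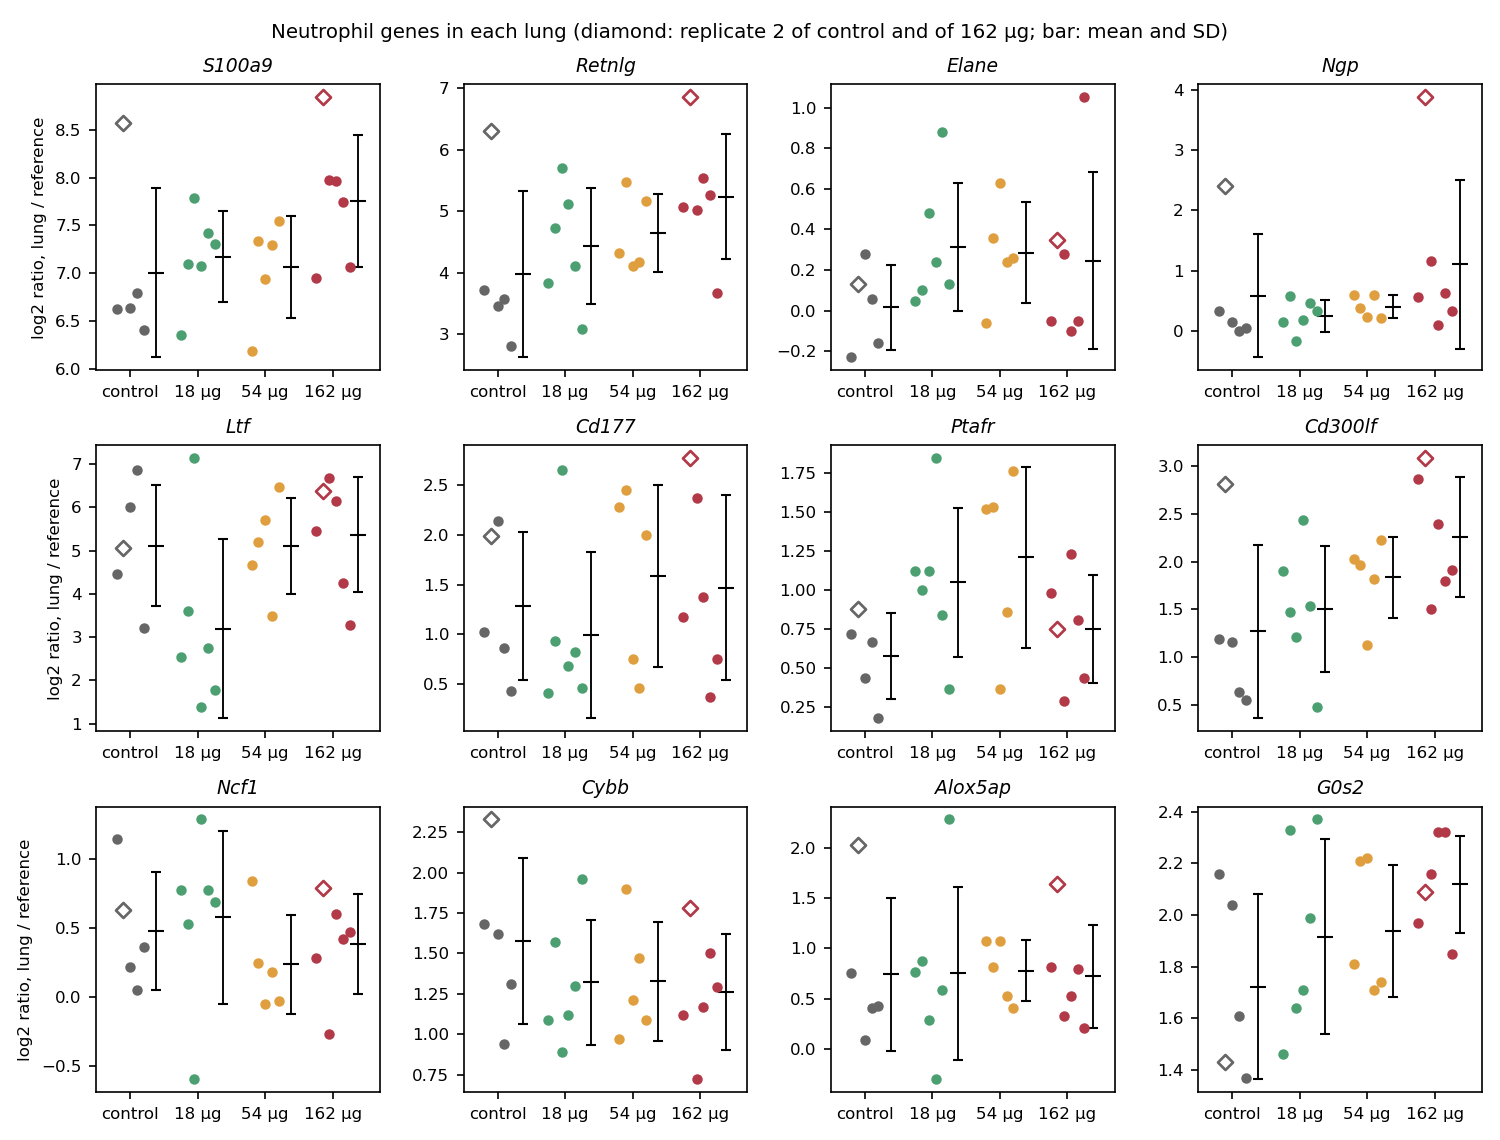
Log2 ratio of lung to reference RNA for selected neutrophil genes in each of the 22 lungs, by dose, with the mean and SD of each group as a bar. Diamonds mark control replicate 2 and 162 µg replicate 2, which lie at the top of their groups for genes such as Ngp (2.40 and 3.87) and Retnlg (6.31 and 6.85).

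The surface group holds Cd177 (a glycoprotein of a subset of neutrophils), Itgam and Itgb2 (the chains of the integrin Mac-1), Selplg (the ligand of P-selectin), Bst1 and Mmp25. Their log2 fold changes at 162 µg ran from -0.40 for Itgb2 to 0.35 for Cd177. Cd177 was 1.02, 1.99, 2.14, 0.86 and 0.43 in controls, 2.28, 2.45, 0.75, 0.46 and 2.00 at 54 µg, and ran from 0.37 to 2.77 with a median of 1.28 at 162 µg. Low and high lungs occurred in each of these groups, and the SE of its change at 162 µg was 0.35. Itgam was the steadiest of the group in controls (1.49 ± 0.08, SD, n = 5) and was 1.67 ± 0.38 (SD, n = 6) at 162 µg. Its 3 probes, from brightest to dimmest, gave log2 fold changes of 0.11 (SE 0.20), 0.42 (SE 0.20, adjusted p = 0.276 in limma) and -0.06 (SE 0.15) at 162 µg. Bst1 had 2 probes, and its log2 fold change at 162 µg was 0.07 (SE 0.19) on the brighter and 0.51 (SE 0.18, adjusted p = 0.116 in limma) on the other.

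The chemoattractant receptors are Fpr1 and Fpr2, for formylated peptides, and Ptafr, for platelet-activating factor. Ptafr had the largest log2 fold change of the 3 at 162 µg, 0.21 (SE 0.27). It was 0.72, 0.88, 0.44, 0.67 and 0.18 in controls, 1.52, 1.53, 0.37, 0.86 and 1.76 at 54 µg, and ran from 0.29 to 1.23 with a median of 0.78 at 162 µg. At 54 µg 3 of 5 lungs exceeded all controls, and the log2 fold change was 0.64 (SE 0.28, adjusted p = 0.529 in limma). Without 54 µg replicate 3, the lowest lung of that group, it was 0.93 with an adjusted p of 0.0405 in limma. Fpr1 ran the other way. It was 3.31, 3.56, 3.57, 3.27 and 3.84 in controls, and 5 of 6 lungs at 18 µg lay below all of these. Its log2 fold change was -0.44 (SE 0.21) at 18 µg, -0.51 (SE 0.22, adjusted p = 0.517 in limma) at 54 µg and -0.16 (SE 0.21) at 162 µg.

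Among the activating, inhibitory and Fc receptors, Cd300lf had the smallest adjusted p of any listed gene against controls. Cd300lf encodes an inhibitory receptor of myeloid cells. Its log2 ratio was 1.19, 2.81, 1.16, 0.63 and 0.55 in controls. At 18 µg it ran from 0.48 to 2.44 with a median of 1.5, at 54 µg it was 2.03, 1.96, 1.13, 1.82 and 2.23, and at 162 µg it ran from 1.5 to 3.08 with a median of 2.15. All 6 lungs at 162 µg exceeded 4 of the 5 controls, and control replicate 2 exceeded 4 of the 6. The log2 fold change at 162 µg was 1.07 (SE 0.34, 95% interval 0.36 to 1.78, unadjusted p = 0.00545, adjusted p = 0.0728 in limma), and the 3 probes of the gene gave 1.07, 0.97 and 0.83. On the 4 slides that held both groups the 162 µg lung was above the control every time, by 0.05 to 1.93. The gene was called in 5 of 40 alternative settings. Among these were fits without 18 µg replicate 2, 18 µg replicate 4 or 54 µg replicate 5, at adjusted p of 0.0457, 0.032 and 0.0303 in limma. These lungs belong to groups outside the comparison. The other genes of this group, Trem3, Fcgr3, Fcgr4 and Clec5a, had log2 fold changes from 0.12 to 0.46 at 162 µg. Clec5a was well above local background on 0 of 22 arrays.

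The oxidase subunits on the list are Cybb, the membrane catalytic subunit, and Ncf1 and Ncf4, which are cytosolic. All 3 had log2 fold changes below 0 at 54 µg (-0.47 to -0.23) and at 162 µg (-0.34 to -0.06), and none passed the test. The shared direction did not hold in every reading. At 54 µg Ncf4 was above the control of its slide on 3 of 3 slides (by 0.08 to 0.34) and Cybb on 2 of 3, and the log2 fold change of Ncf4 was 0.21 with only those groups fitted. At 162 µg that of Ncf4 was 0.13 without control replicate 2. Ncf1 was 1.15, 0.63, 0.22, 0.05 and 0.36 in controls, 0.84, 0.25, -0.05, 0.18 and -0.03 at 54 µg, and ran from -0.27 to 0.79 with a median of 0.45 at 162 µg. The groups overlapped throughout, and its change at 54 µg was -0.47 (SE 0.19, adjusted p = 0.458 in limma). Cybb had a log2 fold change of -0.34 (SE 0.18, 95% interval -0.73 to 0.04) at 162 µg. The 6 oxidase partners outside the list (among them Cyba and Rac2) also held 0 called genes at each dose, with a median log2 fold change of 0.23 at 18 µg, 0.09 at 54 µg and -0.03 at 162 µg.

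Of the enzymes, Alox5ap encodes the protein that presents arachidonate to 5-lipoxygenase, Hdc makes histamine, and Padi4 citrullinates histones. Alox5ap was 0.76, 2.03, 0.09, 0.41 and 0.43 in controls and ran from 0.21 to 1.64 with a median of 0.66 at 162 µg, and its log2 fold change was 0.02 (SE 0.38). Hdc, also named after its values were seen, had a control mean of 4.88 ± 0.17 (SD, n = 5), a mean of 4.44 ± 0.65 (SD, n = 6) at 162 µg and a log2 fold change of -0.46 (SE 0.24, adjusted p = 0.337 in limma). Of the regulators, Cebpe is the transcription factor of secondary granule genes, Mxd1 opposes Myc in maturing cells and G0s2 inhibits triglyceride lipase. G0s2 had the largest log2 fold change of the 3 at 162 µg, 0.37 (SE 0.20). It was 2.16, 1.43, 2.04, 1.61 and 1.37 in controls, 1.81, 2.21, 2.22, 1.71 and 1.74 at 54 µg, and ran from 1.85 to 2.32 with a median of 2.13 at 162 µg. Mxd1 had 2 probes, and its log2 fold change at 162 µg was -0.18 (SE 0.20) on the brighter and 0.46 (SE 0.28) on the other. Cebpe had 1 lung at 18 µg with a ratio of 3.65, against 0.30 ± 0.37 (SD, n = 5) in controls.

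Between doses, 0 of 35 genes were called in limma in each of the 3 comparisons. Of all genes, 2.74% were called higher and 1.36% lower at 162 µg than at 18 µg, 0.015% higher and 0.00999% lower at 54 µg than at 18 µg, and 0% either way at 162 µg against 54 µg. The unadjusted p was under 0.05 for 7 of 35 genes at 162 µg against 18 µg (all genes 22.6%), 3 at 54 µg against 18 µg (13.2%) and 1, Ncf1, at 162 µg against 54 µg (10.7%). Closest to the threshold were Ltf, with a log2 difference of 1.95 (SE 0.56, adjusted p = 0.0583 in limma) at 162 µg against 18 µg, and Hdc, with -0.75 (SE 0.22, adjusted p = 0.0699 in limma). Ltf was called when 18 µg replicate 3, 54 µg replicate 5, 162 µg replicate 3 or 162 µg replicate 6 was left out, at adjusted p from 0.0169 to 0.0434. Hdc was called without control replicate 1, 18 µg replicate 1, 54 µg replicate 3, 54 µg replicate 5 or 162 µg replicate 4, at adjusted p from 0.0286 to 0.0477. With any other single lung left out, neither gene was called beyond the fits named. The comparisons of 162 µg and of 54 µg with 18 µg share the 18 µg lungs.

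The lungs of a group differed more in these genes than in most others. The SD within groups, pooled over the 4 groups, had a median of 0.51 over the 35 genes and 0.28 over 16396 expressed genes, and 31 of the 35 were above the latter. The widest were Ltf (1.55), S100a8 (1.14), Retnlg (1.02), Ngp (0.90) and Cd177 (0.86), and Clec5a (0.20), Mmp25 (0.23) and Prtn3 (0.24) were narrow. A pair of lungs held most of the top values. Control replicate 2 was the highest control for 26 of 35 genes (74.3%), against 18.5% of all expressed genes, and 162 µg replicate 2 was the highest lung of its group for 24 of 35 (68.6%), against 20.9%. These mice lay on different slides. In Cy5 signal alone they held the top value for 19 and 15 genes and in the deposited log2 table for 28 and 22. Without any normalization, control replicate 2 was highest for 8 genes and another control for 25. At the low end, 162 µg replicate 6 was the lowest lung of its group for 18 of 35 genes, control replicate 5 for 16 and 54 µg replicate 3 for 15. Their arrays had 53.5%, 69.8% and 55.7% of probes above background. The part of array quality in these low values was not tested.

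**Figure D3:**
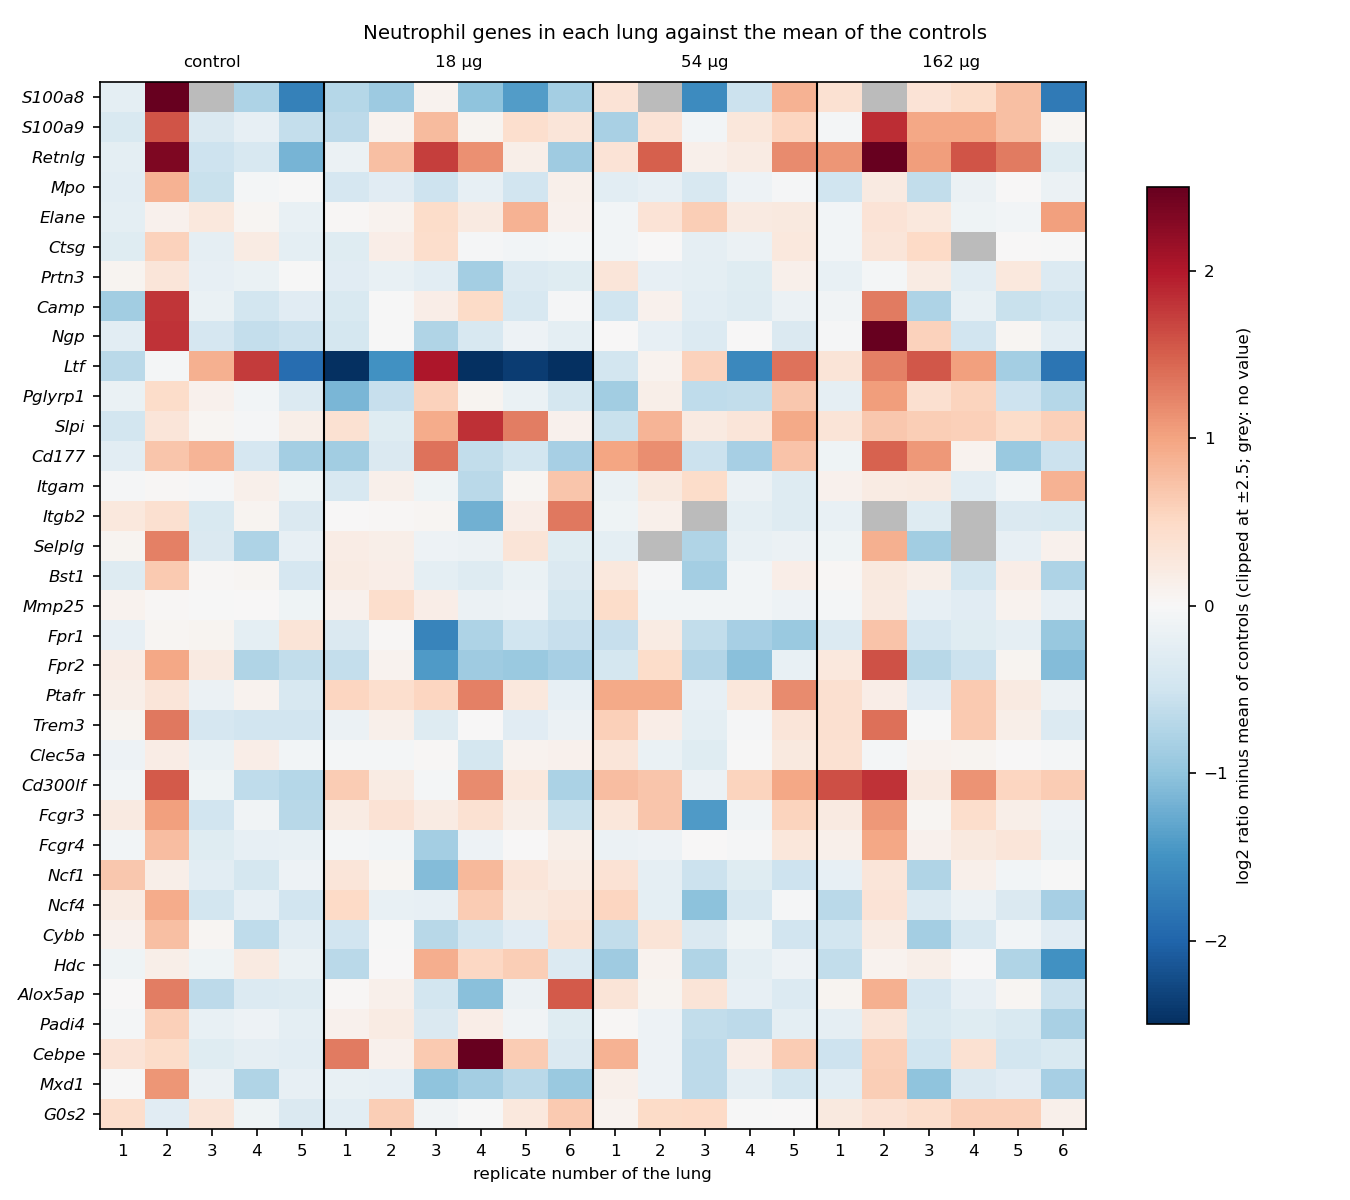
Log2 ratio of each of the 35 neutrophil genes in each of the 22 lungs minus the mean of the controls, in colour, with genes in rows by role and lungs in columns by dose. The columns of control replicate 2 and 162 µg replicate 2 hold most of the highest values of their groups, and their means over the 33 expressed genes were 0.81 and 0.88, against -0.42 to 0.24 in the other 20 lungs.

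The pair differed in some other marker lists and was close in others. The mean of 28 other expressed neutrophil genes, each against the control mean, was 1.18 in control replicate 2 and 1.41 in 162 µg replicate 2. For 4 platelet genes it was 1.12 and 0.34, for 8 monocyte and interstitial macrophage genes 0.81 and 0.06, for 4 Fc receptor partners 1.02 and 0.23, for 7 eosinophil genes 0.18 and 0.58, for 4 endothelial genes 0.34 and 0.88, for 5 erythroid genes 0.10 and 0.40 and for 8 alveolar macrophage genes 0.02 and 0.11. For 4 B cell genes it was -0.41 in both, for 5 lung epithelial genes 0.39 and 0.40 and for 6 mast cell and basophil genes 0.04 and -0.05. For 6 T and NK cell genes it was 0.23 and -0.09 and for 3 pan-leukocyte genes 0.49 and -0.02. The partner lists gave 0.52 and 0.35 (integrin and selectin), 0.25 and 0.35 (leukotriene), 0.65 and 0.41 (myeloid transcription factors) and 0.25 and 0.14 (oxidase). The arrays of both lungs had a usual share of probes above background, 75.2% and 75.7%, in a range of 50.1% to 83.5%. The part of blood or other cells in these 2 lungs was not tested.

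Control replicate 2 bore on the comparisons with controls at all 3 doses. Without it the log2 fold change at 18 µg was 1.38 for Retnlg, 0.76 for S100a9 and 0.34 for S100a8, and at 54 µg it was 1.54 for Retnlg and 1.05 for S100a8. At 162 µg 3 of 35 genes were then called higher in limma, against 2.62% of all genes. These were Retnlg with a log2 fold change of 2.01 (SE 0.44, adjusted p = 0.0152), Cd300lf with 1.43 (SE 0.32, adjusted p = 0.0156) and S100a9 with 1.17 (SE 0.27, adjusted p = 0.0209). With 162 µg replicate 2 left out as well, 0 of 35 were called, and the log2 fold changes were 1.67 (adjusted p = 0.0607), 1.27 (adjusted p = 0.0602) and 0.89 (adjusted p = 0.0772). Nothing in the labels sets control replicate 2 apart, and the values that include it stand as the result.

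The genes did not all vary together from lung to lung. As deviations from the mean of each group over 22 lungs, 31 of the other 34 genes had a correlation with S100a9 above 0 and 11 had one above 0.5. Genes outside the list were not set against S100a9. The counts of correlations here and in the next paragraph therefore cannot be set against a share of all genes. The 4 genes that passed a permutation test of Pearson's r within groups, adjusted over the 34, were Pglyrp1 (r = 0.76, rho = 0.77, permutation p = 1e-05, the smallest that 100000 permutations can give, adjusted p = 0.00034), Ctsg (r = 0.76, rho = 0.71 over 21 lungs, permutation p = 0.00039, adjusted p = 0.0044), Hdc (r = 0.65, rho = 0.72, permutation p = 0.00028, adjusted p = 0.0044) and Retnlg (r = 0.78, rho = 0.67, permutation p = 0.0009, adjusted p = 0.0076). By rank, with permutation p of rho adjusted over the 34, 5 genes passed, and the additional one was Slpi (rho = 0.58, adjusted p = 0.041). With control replicate 2 and 162 µg replicate 2 left out, the lungs farthest from the median of S100a9, r was 0.77 for Pglyrp1, 0.67 for Ctsg, 0.75 for Hdc and 0.56 for Retnlg. The Ctsg spot was well above local background on 13 of 22 arrays.

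Other correlations of deviations from group means fell without those 2 lungs. Camp had r = 0.73 (rho = 0.52, permutation p = 0.0092, adjusted p = 0.062) and 0.32 without them, and Ngp had r = 0.66 (rho = 0.44, permutation p = 0.02, adjusted p = 0.092) and 0.19 without them. Trem3 went from 0.59 to 0.06, Selplg from 0.52 to -0.12, and the median over the 34 genes from 0.40 to 0.09. The Ngp spot was well above local background on 5 of 22 arrays and the Trem3 spot on 12. Dim spots can hide a relation in the remaining lungs, so the fall of these 2 genes cannot be read as a lack of one. Itgam (0.00) and G0s2 (0.03) showed no relation with S100a9, and Ncf1 had r = -0.17 with all lungs and -0.44 without the 2. With slide removed as well as dose and all lungs kept, r was 0.88 for Trem3, 0.81 for Selplg, 0.76 for Camp, 0.76 for Ngp and 0.25 for Ncf1. The median correlation was then 0.60 and 22 genes were above 0.5, so the relations differ between and within slides. The permutations kept lungs within groups and did not take slide into account.

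**Figure D4:**
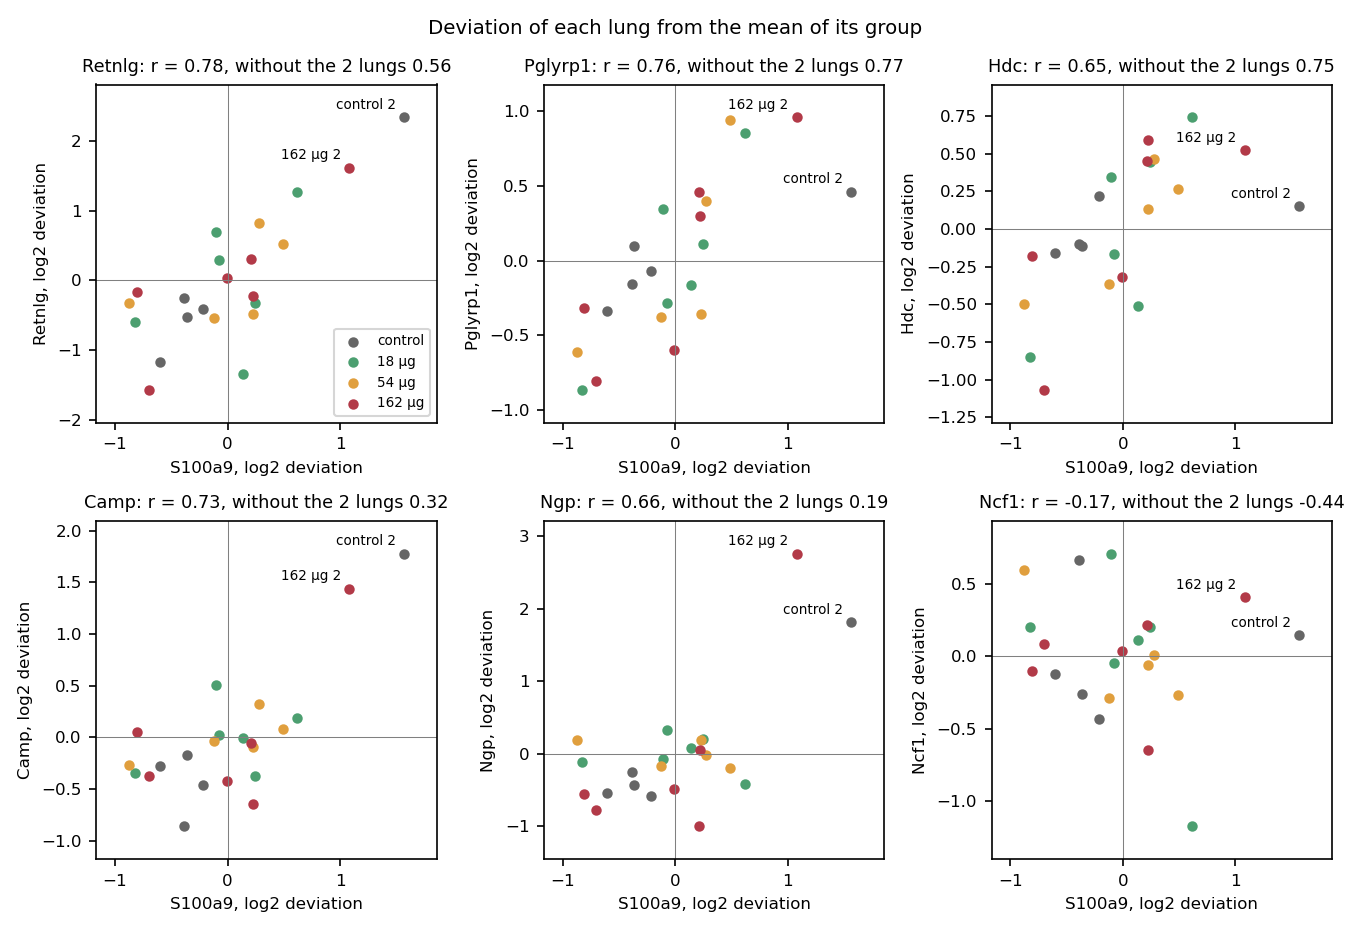
Deviation of each lung from the mean of its group for S100a9 (horizontal axis) and 6 other neutrophil genes (vertical axes), in log2 units, with 1 point per lung coloured by dose. For Pglyrp1 and Hdc the relation holds without the 2 labelled lungs (r = 0.77 and 0.75), and for Camp and Ngp it falls to 0.32 and 0.19. The Ngp spot was well above local background on only 5 of 22 arrays.

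The sequences just upstream of 5 of these genes are shown as examples. Each transcript was the highest of its group in control replicate 2 and, where it had a value, in 162 µg replicate 2. Other listed genes shared this, since these lungs were the highest of their groups for 26 and 24 of the 35 genes. S100a8 and S100a9 lie close to each other on chromosome 3, and Camp and Ngp lie near each other on chromosome 9. Each window is the 250 bases before the gene's start in RefSeq (GRCm38.p6), written 5′ to 3′ on the gene's strand. Capitals mark matches, on either strand, to TTNNGCAA, a form of the sequence bound by C/EBP factors, or to GAGGAA, the core sequence of PU.1 sites.
S100a8, chr3:90668821-90669070, plus strand: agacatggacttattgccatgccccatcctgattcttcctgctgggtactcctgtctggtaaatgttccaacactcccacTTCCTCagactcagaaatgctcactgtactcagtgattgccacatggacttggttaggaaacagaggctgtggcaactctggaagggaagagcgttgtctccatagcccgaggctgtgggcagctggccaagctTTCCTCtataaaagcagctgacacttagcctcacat
S100a9, chr3:90695722-90695971, minus strand: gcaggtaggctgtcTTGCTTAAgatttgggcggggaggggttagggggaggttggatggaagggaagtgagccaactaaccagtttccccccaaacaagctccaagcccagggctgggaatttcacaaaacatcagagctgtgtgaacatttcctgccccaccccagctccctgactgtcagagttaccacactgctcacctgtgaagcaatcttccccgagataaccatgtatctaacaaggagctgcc
Retnlg, chr16:48872358-48872607, plus strand: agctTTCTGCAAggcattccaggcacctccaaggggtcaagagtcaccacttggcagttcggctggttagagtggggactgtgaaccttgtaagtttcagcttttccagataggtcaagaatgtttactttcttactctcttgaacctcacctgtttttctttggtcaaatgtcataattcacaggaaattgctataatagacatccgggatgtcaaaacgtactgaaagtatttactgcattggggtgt
Camp, chr9:109849457-109849706, minus strand: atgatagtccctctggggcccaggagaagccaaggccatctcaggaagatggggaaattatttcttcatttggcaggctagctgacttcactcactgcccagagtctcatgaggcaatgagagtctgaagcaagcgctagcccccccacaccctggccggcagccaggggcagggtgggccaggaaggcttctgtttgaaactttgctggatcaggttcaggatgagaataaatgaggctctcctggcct
Ngp, chr9:110419558-110419807, plus strand: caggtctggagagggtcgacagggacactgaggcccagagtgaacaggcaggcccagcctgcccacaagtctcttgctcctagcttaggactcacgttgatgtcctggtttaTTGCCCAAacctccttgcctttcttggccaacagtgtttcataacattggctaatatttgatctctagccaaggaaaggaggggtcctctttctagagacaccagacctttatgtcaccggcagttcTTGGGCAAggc

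TTNNGCAA occurred in the windows of S100a9 (1 match), Retnlg (1) and Ngp (2) and not in those of S100a8 or Camp, and GAGGAA occurred only in that of S100a8 (2) among these 5. The first was held by 8 of 31 windows of 29 listed genes (25.8%) and by 9.57% of 32841 windows of all genes, and the second by 19 of 31 (61.3%) and 23.3%. A match of letters is a description and not a bound site, and no binding was measured in these lungs.

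Neutrophil genes outside the list were drawn from 30 further genes, of which 29 were on the array and 28 expressed. Of the 29, 1 was called higher at 18 µg (0.52% of all genes), 0 at 54 µg (0.205%) and 2 at 162 µg (2.74%), with 0 called lower. The median log2 fold change was 0.10, 0.23 and 0.42 (all genes -0.01, -0.01 and 0). The unadjusted p in limma was under 0.05 for 4 of 29 genes at 18 µg (all genes 19%), 3 at 54 µg (12%) and 9 at 162 µg (24.4%). Lcn2 encodes neutrophil gelatinase-associated lipocalin, an iron-carrier-binding protein of secondary granules that airway epithelium also makes. It ran from 1.97 to 3.03 in controls and from 3.53 to 4.49 at 162 µg, without overlap, and rose by a log2 fold change of 1.14 (SE 0.27, adjusted p = 0.0485 in limma) at 18 µg and 1.65 (SE 0.27, adjusted p = 0.00193) at 162 µg. In control replicate 2 it was 1.97, the lowest control. Il1r2, the decoy receptor for interleukin 1, was 0.75, 3.57, 1.03, 0.35 and 0.31 in controls and ran from 2.02 to 5.54 at 162 µg, a rise of 2.36 (SE 0.48, adjusted p = 0.00746). Not called at 162 µg were Cxcr2, the receptor for neutrophil-attracting chemokines (1.23, SE 0.54, adjusted p = 0.234), Il1b (1.38, SE 0.65, adjusted p = 0.273), Mmp8, neutrophil collagenase (0.81, SE 0.60), and Csf3r, the receptor for granulocyte colony-stimulating factor (-0.22, SE 0.13).

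Partner genes of the listed proteins were also read from fixed lists. Of all genes, 2.74% were called higher and 2.9% lower at 162 µg, 0.52% and 1.18% at 18 µg, and 0.205% and 0.115% at 54 µg. Of 7 integrin and selectin partners, Icam1 (0.91) and Selp (0.81), the endothelial ligands of Mac-1 and Selplg, were called higher at 162 µg and Itgal (-0.78) was called lower. Of 6 leukotriene genes Lta4h (-0.63) was called lower, and of 5 myeloid transcription factors Cebpd (1.91, SE 0.40, adjusted p = 0.00954 in limma) was called higher, with 2.81 in control replicate 2. None of 4 Fc receptor partners was called. Among other cell types at 162 µg, the 4 B cell genes had the lowest median of the cell type lists (-0.74) and Ms4a1 was called lower (-0.89), 1 of 8 alveolar macrophage genes (Marco, 1.51) and 1 of 8 eosinophil genes (Ear6, 0.81) were called higher, and 0 of 7 mast cell and basophil, 0 of 8 monocyte and interstitial macrophage, 0 of 6 T and NK cell, 0 of 5 erythroid, 0 of 4 platelet, 0 of 4 endothelial, 0 of 5 lung epithelial and 0 of 3 pan-leukocyte genes were called. The median over the monocyte and interstitial macrophage genes was -0.30 (all genes 0). At 18 µg the lists held 1 further called gene, Chil3 of the alveolar macrophage list (1.73), and at 54 µg none. The part of these cells in the values of the neutrophil genes was not tested.

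**Figure D5:**
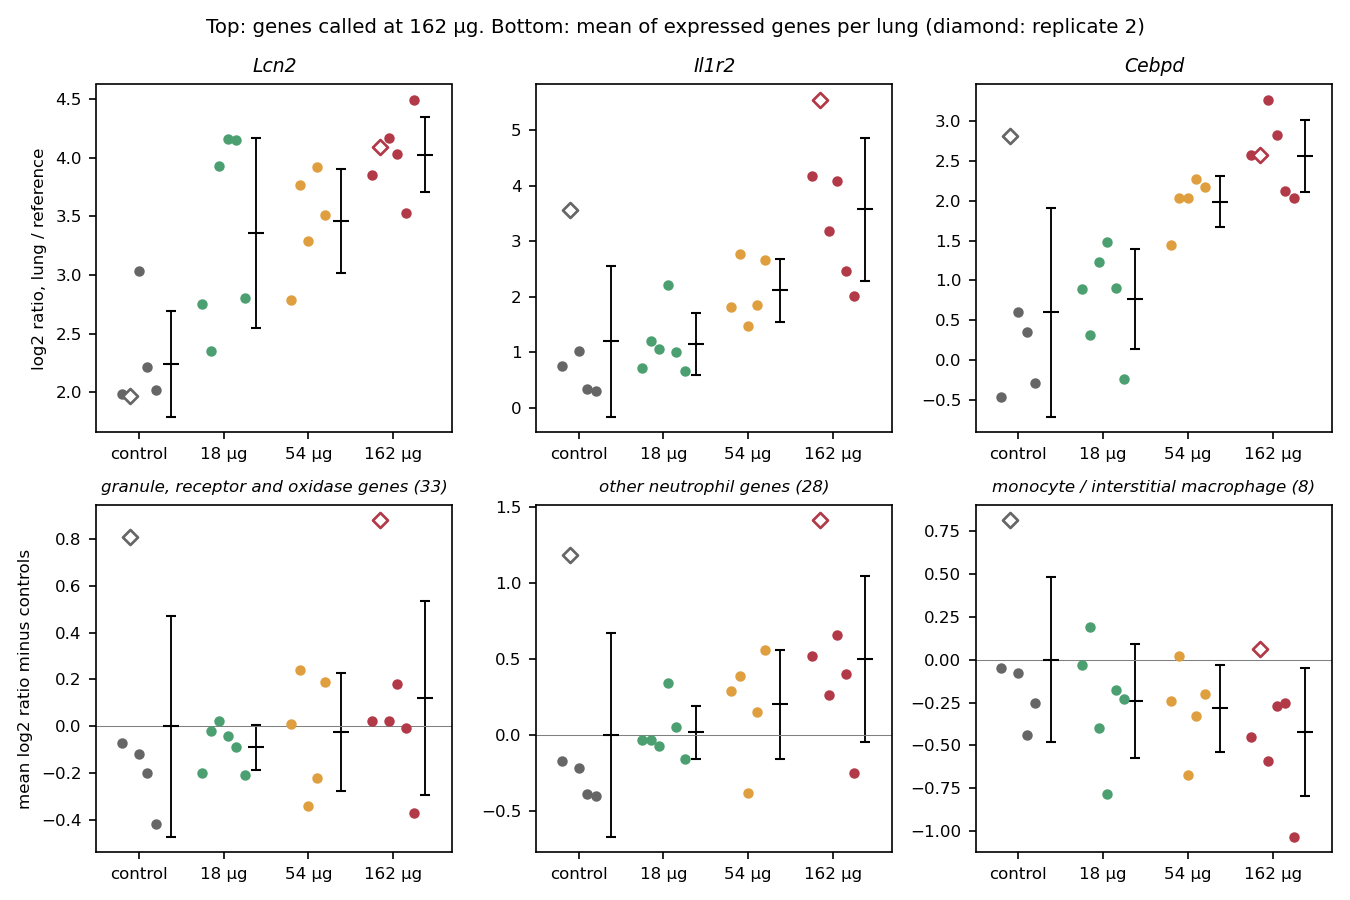
Top row, log2 ratio of lung to reference RNA in each lung for Lcn2, Il1r2 and Cebpd, genes outside the list that were called at 162 µg. Bottom row, mean over the expressed genes of marker lists in each lung minus the mean of the controls, in log2 units, with diamonds for replicate 2 of control and of 162 µg and bars for the mean and SD. Lcn2 at 162 µg (3.53 to 4.49) lies above all controls (1.97 to 3.03).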

How the data were processed

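Per the labels, Cy5 marks lung RNA and Cy3 the reference on every array, with no dye swap. The authors deposited intensity values of each scanned spot, written per the file headers with version 10.7.3.1 of Feature Extraction, from which median spot signals were used without background subtraction, and a table of normalized log2 ratios whose normalization is not given in the sources used here. The deposited log2 table ran in the same direction (r = 0.834 to 0.998 with the loess values, slope 0.587 to 0.996, column medians -0.0516 to -0.0166) and served as an alternative.

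Spots flagged as outliers (0.342% to 4.42% per array) and control spots were left out, and log2(Cy5/Cy3) was normalized within arrays by loess (span 0.3), with replicate spots combined per probe. Of 55681 probes, 26413 were named through RefSeq accessions (RefSeq genes of GRCm38.p6). Dose and slide were fitted in limma 3.58.1 (R 4.3.3, with the data.table package) over 22 arrays on 7 slides, leaving 12 residual degrees of freedom, and Benjamini-Hochberg adjustment of p-values ran over all probes. A fold change is thus adjusted for slide and differs from a difference of group means. A gene counted as expressed if, on 80% or more of a group's arrays, Cy5 exceeded the trimmed mean (5%) of 308 negative control spots by 3 trimmed SD. The fit was tested on simulated data. P-values measure the spread between mice, whose number limits the precision. The 7 slides held 3 or 4 arrays, and 2 held no control.

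The genes, the other lists and the tests were chosen with earlier results of these data known. Values per mouse are given for the gene with the largest log2 fold change at 162 µg in each role group. From other lists, called genes and a few bright genes are named. Some genes of those lists are not reported here. Alternatives were normexp background correction (offset 50), median centring, no normalization, quantile normalization, Cy5 alone, the deposited table, other slide terms, a replicate block, only the groups compared, other detection filters, outlier spots kept, no fold minimum, other probes and leaving out each mouse. After seeing the data, control replicate 2 and 162 µg replicate 2 were left out together, and 4 arrays with fewer than 60% of probes above background were left out.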

Additional observations from a re-analysis of the deposited data

Results flagged for a closer look

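In a group of 4 to 10 lungs, the highest or lowest lung of a neutrophil gene was marked where its gap to the next lung was a large part of the group's range by Dixon's criterion. Of 140 gene and group combinations, 18 were marked (12.9%), and 9 of the 18 were in control replicate 2 or 162 µg replicate 2. The nominal level of the criterion is about 5%, which holds for independent values. The genes were read in the same lungs, and the share of all genes marked by this rule is not given. Whether 12.9% is more than other genes would give is therefore not known. Control replicate 2 was the high lung for S100a9 (8.57, next 6.79), Retnlg (6.31, next 3.72), Ngp (2.40, next 0.33), Camp (2.36, next 0.41), Cd300lf (2.81, next 1.19), Fcgr4 (1.19, next 0.35) and Padi4 (1.47, next 0.81), all as log2 ratios of lung to reference. In 162 µg replicate 2 it was Ngp (3.87, next 1.17) and Camp (1.89, next 0.50).

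The other 9 were spread over 7 lungs. S100a8 was low in 162 µg replicate 6 (1.92, next 4.02), in a group with 5 values. At 18 µg, Prtn3 was low in replicate 4 (-0.64), Clec5a was low in replicate 4 (-0.49), Cd177 was high in replicate 3 (2.65), Fcgr4 was low in replicate 3 (-0.43) and Fcgr3 was low in replicate 6 (0.60). At 54 µg, Selplg was low in replicate 3 (0.80) and Mmp25 was high in replicate 1 (0.66). Clec5a was high in 162 µg replicate 1 (0.33), where its spot was not well above background.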

How the results depend on the processing

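Of 5600 values of single genes under the alternatives, 5572 kept their side of the threshold and 28 were called. In 17 settings other than leaving out 1 lung, the count of called genes stayed at 0 of 35 at 18 µg, at 54 µg against 18 µg and at 162 µg against 54 µg. With only the 2 groups compared in the fit, 4 were called at 54 µg against control (S100a8, Retnlg, Ptafr, Cd300lf, all higher) and 2 at 162 µg against 18 µg (Ncf4 and Hdc, lower). Leaving out 4 arrays with fewer than 60% of probes above background, chosen after seeing the data, gave 1 at 162 µg (Cd300lf). At 162 µg against 18 µg, quantile normalization gave 2 (Ltf higher, Hdc lower), Cy5 alone 1 (Itgam, higher) and the second brightest probe 1 (Bst1, higher). The share of all genes called in these settings is not given, so these counts cannot be set against all genes. The cause of these differences was not tested. With 1 lung left out the counts ran from 0 to 0 at 18 µg, 0 to 1 at 54 µg, 0 to 3 at 162 µg (3 without control replicate 2), 0 to 2 at 162 µg against 18 µg, and 0 to 0 for the other pairs of doses.

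The median log2 fold change of the 35 genes ran from -0.03 to 0.29 at 18 µg, from -0.14 to 0.14 at 54 µg and from -0.01 to 0.24 at 162 µg with 1 lung left out, and from -0.30 to 0.18, from -0.22 to 0.21 and from -0.11 to 0.15 in the other settings. With the replicate number as a block beside slide, 0 genes were called in each comparison, and the medians were 0.02 at 18 µg, -0.22 at 54 µg and 0.15 at 162 µg. Over 132 listed genes with a value in every lung, 20 of 31 same-numbered pairs had a correlation of deviations above 0.1 (median 0.24, -0.55 to 0.62), and 9 of 22 lungs correlated best with their own number. Some pairs fell below 0.1. Many same-numbered lungs lay on the same slide, so number and slide cannot be told apart in these values. The share that unpaired lungs would give is not known, so the values cannot decide whether lungs were paired. The labels state no pairing, and the lungs were not treated as paired.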
